A study of Mus musculus with 6 samples.

Results

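The genes described here encode the core proteins of the inflammasome, of pyroptosis and of necroptosis, the inflammatory forms of regulated cell death. They were chosen by name, as the 10 genes *Nlrp3*, *Pycard*, *Casp1*, *Casp4*, *Casp8*, *Casp12*, *Gsdmd*, *Ripk1*, *Ripk3* and *Mlkl*, and each was found once among the 55357 genes of the astrocyte expression table. The study asked how BRAF K499E (KE), a constitutively active mutant of the kinase BRAF, changes gene expression in astrocytes. Primary astrocytes from the cortex of late-gestation C57BL/6 mouse embryos were transfected with a plasmid carrying FLAG-BRAF KE behind the CMV promoter, and RNA was collected 48 hours later from 3 cultures (KE). The comparison group was 3 cultures of the same kind that received no plasmid (NT), so the plasmid DNA and the transfection itself cannot be told apart from BRAF KE in any difference given here. The CMV promoter is not specific to astrocytes, and the cultures were not sorted by cell type. The labels do not say whether the 3 cultures of a group came from separate preparations. The p-values weigh a difference against the variation between these cultures, which may be technical.

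An inflammasome is a protein complex that forms when a sensor such as NLRP3 detects damage or microbial products and recruits, through the adaptor ASC (encoded by *Pycard*), the protease caspase-1. Caspase-1 matures interleukin 1 beta and interleukin 18 and cleaves gasdermin D, whose fragment forms pores in the plasma membrane, the death called pyroptosis. In necroptosis, the kinases RIPK1 and RIPK3 activate the pseudokinase MLKL, which disrupts the membrane, and caspase-8 restrains this route. In the brain, NLRP3 inflammasomes are best known from microglia.

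Expression is given as the normalized count, which is the gene count estimated by the authors with Salmon and normalized by them with DESeq2. The approximate sequencing depth was 24500000 to 34100000 reads per culture and was lowest in KE replicate 2. *Braf*, the transfected gene, had 34933 to 40978 normalized counts in the KE cultures and 811 to 946 in the NT cultures, which matched the labels. In the limma comparison of KE with NT, 7844 of the 15280 tested genes (51.3%) passed an adjusted p-value of 0.05, with 25.3% higher and 26% lower in KE, and the values of the 2 groups did not overlap in 59.9% of tested genes.

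All 10 genes were expressed above the mean of 10 normalized counts required for testing. In BRAF KE–transfected cultures, 4 of them rose (*Mlkl*, *Casp4*, *Casp1* and *Casp12*), 2 fell (*Nlrp3* and *Pycard*) and 4 did not pass the test (*Gsdmd*, *Casp8*, *Ripk1* and *Ripk3*). The 2 groups of cultures were separate in the 6 called genes and overlapped in the other 4. A share of 6 in 10 is near the 51.3% called among all tested genes, so the count itself does not set these genes apart. Their median log2FC was -0.05, ranging from -3.66 to 2.11, beside a median of 0.0018 over all tested genes.

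**Figure D1:**
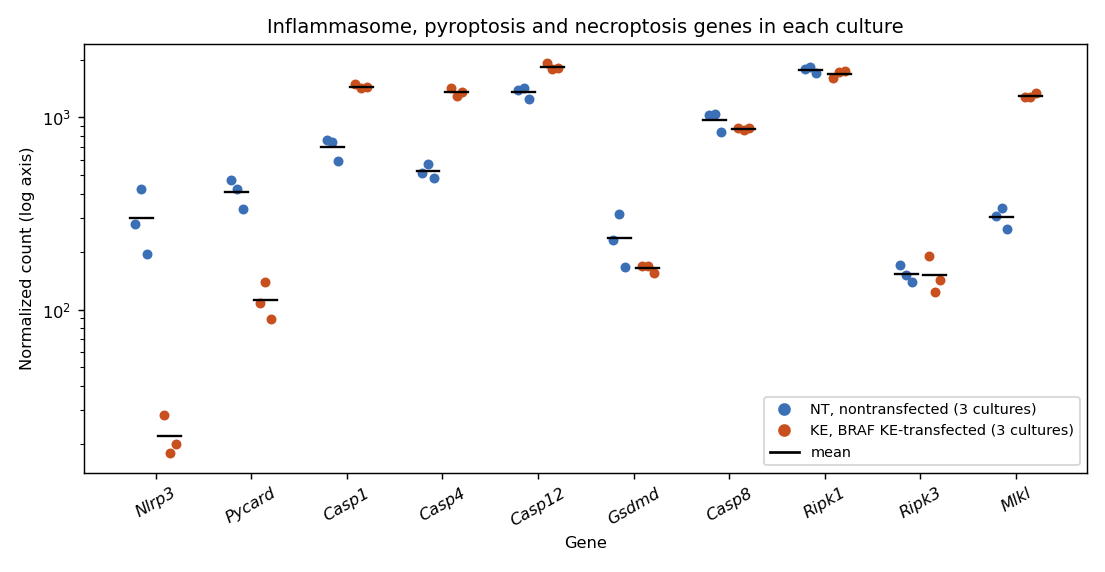
Normalized count (log axis) of each of the 10 genes in every culture, with NT cultures in blue, KE cultures in orange and the group mean as a black line. The KE points lie below all NT points for *Nlrp3* and *Pycard* and above all NT points for *Casp1*, *Casp4*, *Casp12* and *Mlkl*. The KE and NT ranges overlap for the other 4 genes.

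The largest change of the 10 genes was found for the sensor. Values are given in the order of replicates 1, 2 and 3 throughout. *Nlrp3* (ENSMUSG00000032691, plus strand of chromosome 11 of GRCm39, from 59432394 to 59457782) had 28.2, 17.9 and 19.9 normalized counts in KE replicates 1, 2 and 3 and 279, 424 and 195 in NT replicates 1, 2 and 3. Every KE culture was far below every NT culture, and the NT cultures themselves spread widely, with replicate 3 lowest. The mean was 299.5 ± 116 (SD, n = 3) in NT and 13.6-fold lower in KE, with a log2FC of -3.66 (standard error, SE, 0.28, adjusted p = 1.2e-06 by limma and Benjamini-Hochberg). The log2FC lay at percentile 0.622 of all tested genes.

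*Pycard* (ENSMUSG00000030793, minus strand of chromosome 7, from 127588558 to 127593039) encodes ASC, the adaptor that joins the sensor to caspase-1. Its normalized counts were 108, 139 and 88.8 in KE against 471, 423 and 334 in NT. The 2 groups were well separated, with NT replicate 3 again the lowest of its group. The level was 3.66-fold lower in KE, a log2FC of -1.87 (SE 0.18, limma adjusted p = 7.4e-06).

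Both genes fell together with transcripts of microglia and macrophages, cells that can remain in astrocyte cultures. The study's methods describe shaking the dishes for some hours and washing them before the cells were replated, a step commonly used to remove loosely attached cells. Of 22 marker genes of these cells, 21 were tested and 20 fell, with a median log2FC of -3.33, ranging from -4.66 to 0.03. The gene that was not called, *Sall1* (named after its values were seen), had 2678 to 2912 normalized counts in all 6 cultures, and *Siglech* was listed at 0 in all of them. The summed level of the list was 9650, 12556 and 9876 normalized counts in KE against 74066, 73989 and 62241 in NT. The defining markers *Csf1r*, the receptor for CSF1, and *Aif1*, which encodes Iba1, had log2FC of -3.46 and -3.31. Neither was at 0 in any culture, with *Csf1r* at 274 to 278 normalized counts in KE and *Aif1* at 80.2 to 102. The part of these cells in the fall of *Nlrp3* and *Pycard*, and in the falls given below, was not tested. In bulk RNA, fewer cells of a type and less RNA per cell cannot be told apart.

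Other inflammasome sensors and regulators were compared as a list of 17 genes, of which 12 were expressed highly enough to be tested. Of these, 8 fell, 1 rose and 3 were not called, with a median log2FC of -2.57, and with no filter on low genes the rises numbered 2. *Naip6*, a receptor subunit for bacterial flagellin, had a log2FC of -2.96 and *Aim2*, a sensor of cytosolic DNA, one of -2.76. *Naip6* belongs to a family of near-identical copies, so its value is uncertain. The rise among the 12 tested genes was that of *Gbp5*, an interferon-inducible GTPase that promotes NLRP3 assembly, from 1250 ± 323 (SD, n = 3) to 7145 ± 255 (SD, n = 3) normalized counts and a log2FC of 2.55 (adjusted p = 1.4e-07 from limma). The 3 genes that were not called, named here after their values were seen, were the NLRP3 partner *Nek7* (-0.17), *Txnip* (-0.16) and the channel gene *Panx1* (-0.07).

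The inflammatory caspases changed in the opposite direction to the sensor and the adaptor. *Casp1*, *Casp4* and *Casp12* are neighbours on the plus strand of chromosome 9. *Casp1* (ENSMUSG00000025888) spans 5298508 to 5307290, *Casp4* (ENSMUSG00000033538) spans 5308828 to 5336783 and *Casp12* (ENSMUSG00000025887) spans 5345415 to 5373034. The gap between *Casp1* and *Casp4* is 1537 bases and that between *Casp4* and *Casp12* is 8631 bases, with no other protein-coding gene in either.

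*Casp4* encodes the mouse protease that binds cytosolic lipopolysaccharide and cleaves gasdermin D without an inflammasome sensor. Its normalized counts were 1427, 1287 and 1363 in KE against 514, 573 and 484 in NT. The lowest KE value was above the highest NT value by a wide margin. The level was 2.59-fold higher in KE, with a log2FC of 1.38 (SE 0.08, limma adjusted p = 2.4e-07).

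*Casp1* had 1484, 1414 and 1444 normalized counts in KE against 766, 744 and 592 in NT. The KE cultures lay close together, whereas NT replicate 3 was lower than the other NT cultures. The level was 2.07-fold higher in KE, with a log2FC of 1.05 (SE 0.10, limma adjusted p = 5.3e-06).

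*Casp12*, whose product has been linked to stress of the endoplasmic reticulum and to restraint of inflammation, had 1909, 1786 and 1812 normalized counts in KE against 1384, 1426 and 1240 in NT. The groups did not overlap, but the difference was modest, a 1.36-fold higher level with a log2FC of 0.45 (SE 0.07, limma adjusted p = 3.3e-04). Relative to *Casp12*, the level of *Casp4* per kilobase of transcript was 1.38, 1.33 and 1.39 in KE against 0.687, 0.742 and 0.722 in NT. This ratio was thus higher in 3 of 3 KE cultures, by 0.93 on the log2 scale. With 3 cultures against 3, a two-sided exact permutation test cannot give a p below 0.1, and it gave p = 0.1 here (0.1 after adjustment over 3 ratios).

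The ratio of *Casp1* to *Pycard*, the protease to its adaptor, was 37.0, 27.5 and 43.8 per kilobase in KE against 4.38, 4.73 and 4.76 in NT. It was higher in every KE culture, by 2.94 on the log2 scale (exact permutation p = 0.1, the smallest possible, adjusted p = 0.1). Both the rise of *Casp1* and the fall of *Pycard* enter this ratio. As each gene alone separated the groups, in opposite directions, the ratio had to separate them too. Its p therefore adds nothing to the calls of the genes.

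*Gsdmd* (ENSMUSG00000022575, plus strand of chromosome 15, from 75733974 to 75739257) encodes gasdermin D, the pore former of pyroptosis. It had 168, 169 and 155 normalized counts in KE against 229, 314 and 167 in NT. NT replicate 3 lay within the range of the KE cultures, so the groups overlapped. The log2FC was -0.48 (95% interval -0.91 to -0.05, adjusted p = 0.060 from limma), which did not pass the threshold. Without NT replicate 3 the log2FC was -0.71 and passed it (adjusted p = 0.0038 from limma, 0.0038 to 0.235 over all alternatives), and without NT replicate 2 it was -0.25. The direction held in all 14 alternatives.

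Among other gasdermins and the membrane rupture gene *Ninj1*, 2 of 9 genes were tested. *Gsdme*, another pore-forming gasdermin, rose by a log2FC of 0.35 (adjusted p = 0.019 from limma), a call that was lost without KE replicate 1, KE replicate 2, NT replicate 1 or NT replicate 3. *Ninj1*, named after its value was seen, had a log2FC of 0.16 (adjusted p = 0.079 from limma).

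The cytokines that caspase-1 matures moved in opposite directions. *Il1b* (interleukin 1 beta) fell from 128 ± 38.2 (SD, n = 3) to 23.7 ± 7.26 (SD, n = 3) normalized counts, a log2FC of -2.37. *Il18* rose from 303.5 ± 48.6 (SD, n = 3) to 508 ± 38.1 (SD, n = 3), a log2FC of 0.75. The secreted antagonists followed the same division. *Il1rn*, the interleukin 1 receptor antagonist, had a log2FC of -1.83, and *Il18bp*, the interleukin 18 binding protein, one of 2.48. Of the 21 tested microglia and macrophage markers, 20 fell as well, with a median log2FC of -3.33. The part of these cells in the falls of *Il1b* and *Il1rn* was not tested.

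**Figure D2:**
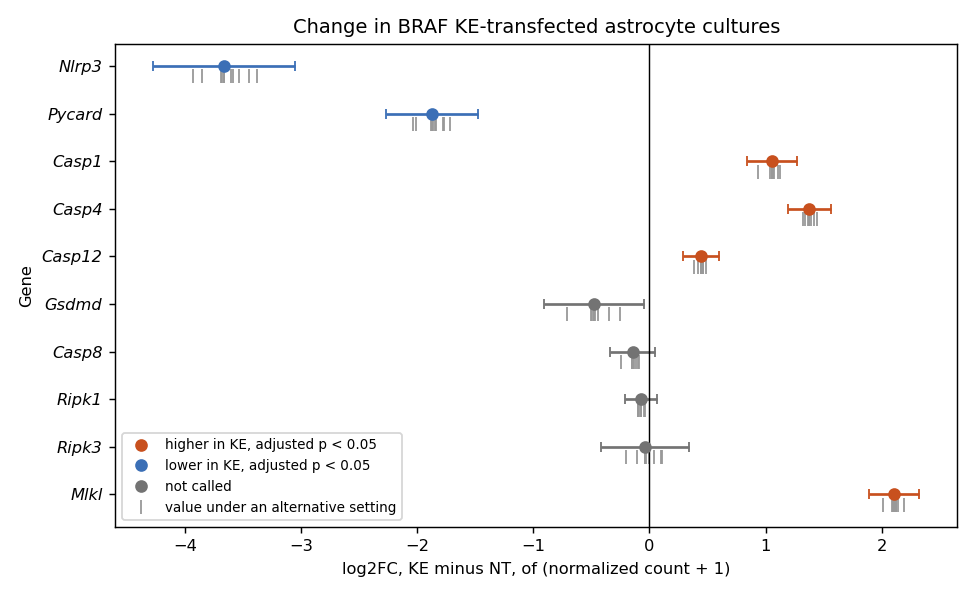
log2FC (KE minus NT) of the 10 genes with the 95% interval from limma, coloured by call, with grey ticks for the value under each of 14 alternative settings. *Mlkl* at 2.11 and *Nlrp3* at -3.66 mark the ends of the range, and the ticks of *Ripk3* lie on both sides of 0.

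The necroptosis genes did not move as one. *Mlkl* (ENSMUSG00000012519, minus strand of chromosome 8, from 112036296 to 112065168), which encodes the executor of necroptosis, had 1281, 1276 and 1343 normalized counts in KE against 306, 337 and 264 in NT. The KE cultures were nearly equal to each other and far above every NT culture. The mean rose from 302 ± 36.8 (SD, n = 3) to 1300.0 ± 37.4 (SD, n = 3), a 4.30-fold higher level and a log2FC of 2.11 (SE 0.10, limma adjusted p = 3.4e-08). This was the largest rise of the 10 genes, at percentile 98.8 of the log2FC of all tested genes.

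*Ripk3* (ENSMUSG00000022221, minus strand of chromosome 14, from 56022452 to 56026324) encodes the kinase that phosphorylates MLKL. It had 189, 123 and 143 normalized counts in KE against 170, 152 and 138 in NT. The KE values enclosed the NT values on both sides. The log2FC was -0.04 (95% interval -0.41 to 0.34, adjusted p = 0.88 from limma), so a change of up to about that size in either direction was not detectable. Its sign turned positive without KE replicate 2 and without NT replicate 1.

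*Ripk1* (ENSMUSG00000021408, plus strand of chromosome 13, from 34186141 to 34221130) encodes the kinase at which cell survival, apoptosis and necroptosis part. It had 1594, 1715 and 1741 normalized counts in KE against 1783, 1828 and 1705 in NT. The groups overlapped and the log2FC was -0.07 (95% interval -0.21 to 0.07, adjusted p = 0.35 from limma). The start of *Ripk1* overlaps *Serpinb6a* on the opposite strand. The library kit keeps the strand, but whether the counting used it is not given in the sources used here.

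*Casp8* (ENSMUSG00000026029, plus strand of chromosome 1, from 58834375 to 58886665) encodes the protease that cleaves RIPK1 and RIPK3 and also starts apoptosis. It had 880, 859 and 879 normalized counts in KE against 1025, 1041 and 844 in NT. NT replicate 3 was below all KE cultures and the other NT cultures were above them. The log2FC was -0.15 (95% interval -0.34 to 0.05, adjusted p = 0.19 from limma). Without NT replicate 3 it was -0.24 and passed the threshold (adjusted p = 0.028 from limma, 0.028 to 0.465 over all alternatives).

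The level of *Mlkl* relative to *Ripk3*, per kilobase of transcript, was 3.08, 4.71 and 4.27 in KE against 0.819, 1.01 and 0.865 in NT. It was higher in all KE cultures, by 2.15 on the log2 scale (exact permutation p = 0.1, the smallest possible, adjusted p = 0.1 over 3 ratios). This restates the rise of *Mlkl* beside a gene that was not called, and the p adds nothing to that call. Per kilobase of canonical transcript, *Mlkl* RNA was thus at about the level of *Ripk3* RNA in NT and several times above it in KE. The level of one gene relative to the other depends on the lengths taken. The canonical transcripts have 4171 bases (*Mlkl*) and 1894 bases (*Ripk3*), but the median transcripts have 3681 and 658. The change of the ratio between groups does not depend on the lengths.

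Genes that trigger necroptosis were a list of 6, all tested, of which 5 rose and 1 fell. The rises numbered 4 with no filter on low genes, with no variance trend and when any culture other than KE replicate 1 was left out. *Zbp1*, a nucleic acid sensor that binds RIPK3 directly, rose from 388 ± 87.1 (SD, n = 3) to 2310 ± 168 (SD, n = 3) normalized counts, a log2FC of 2.59 (adjusted p = 1.2e-07 from limma). *Tlr3*, a receptor for double-stranded RNA, rose by a log2FC of 1.74. The fall was that of *Tnf*, the cytokine that engages RIPK1 through its receptor, with a log2FC of -3.60. *Tnf* had 54.2, 35.0 and 51.6 normalized counts in KE against 713, 852 and 305 in NT. It fell beside the microglia and macrophage markers, and the part of these cells in its fall was not tested.

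The 17 partners and regulators of RIPK1 were all tested. Of these, 12 were not called, 4 rose and 1 fell, with a median log2FC of 0.02. The largest rises were those of *Tnfaip3* (1.13), which encodes the ubiquitin editor A20, and *Rnf31* (0.71), the catalytic subunit of the linear ubiquitin ligase. The fall was that of *Fadd* (-0.22, adjusted p = 0.043 from limma), the adaptor between RIPK1 and caspase-8, and this call was lost with no filter on low genes, without KE replicate 2 and without any one of the NT replicates.

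**Figure D3:**
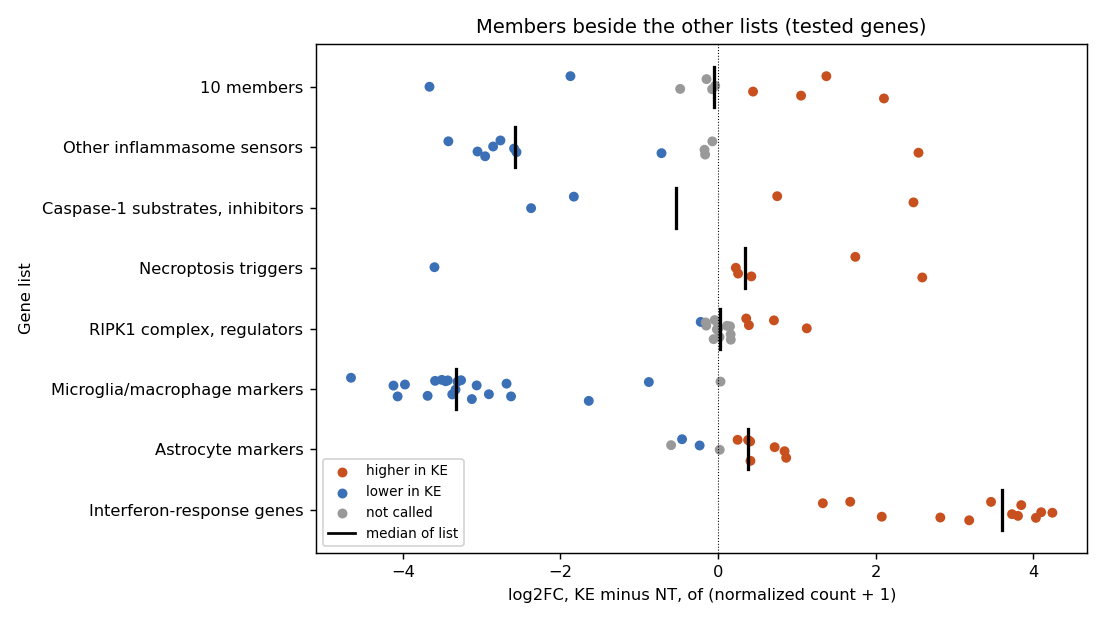
log2FC (KE minus NT) of each tested gene in the 10 members and in 7 other lists, coloured by call, with the median of each list as a black line. The other inflammasome sensors (median -2.57) and the microglia and macrophage markers (median -3.33) lie to the left, and the interferon-response genes (median 3.60) to the right.

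Among the genes above that rose, *Casp1*, *Casp4*, *Mlkl*, *Zbp1*, *Tlr3* and *Gbp5* are known to respond to interferon. A list of 12 interferon-response genes was measured beside them. All 12 were tested and rose, with a median log2FC of 3.60, ranging from 1.33 to 4.25. *Mx1* had the largest log2FC of the list at 4.25, followed by *Cxcl10* at 4.10. Their summed level was 200251, 206408 and 202958 normalized counts in KE against 23816, 26958 and 17835 in NT. NT replicate 3, the lowest of the NT cultures in this sum, was the lowest NT culture for each of the 10 genes, those that fell or were not called included. The part of interferon in these rises was not tested.

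Markers of other cells were compared in the same way. Among astrocyte markers, 11 of 12 were tested, of which 7 rose, 2 fell and 2 were not called, with *Gfap* at a log2FC of 0.87 and *Aldh1l1* at 0.72. The falls were those of *Gja1* (-0.46), which encodes the gap junction protein connexin 43, and of the growth factor receptor gene *Fgfr3* (-0.23). These falls numbered 1 with no variance trend and without KE replicate 1, KE replicate 3, NT replicate 2 or NT replicate 3. *Gfap* had 30696 to 32167 normalized counts in KE and 16537 to 17745 in NT, so the cultures carried astrocyte transcripts as labelled. Of the 7 tested neuron markers, 1 rose, 2 fell and 4 were not called, and without KE replicate 1 the rises numbered 2 and the falls 3. All 7 tested markers of the oligodendrocyte lineage fell, with a median log2FC of -0.55, and 4 were still called without KE replicate 1, KE replicate 3 or NT replicate 2. These transcripts were not rare. The summed level of the whole list was 27105 to 31875 normalized counts in KE and 35920 to 36217 in NT. For the list of astrocyte markers it was 195735 to 201788 in KE and 143565 to 152402 in NT. For vascular cells and fibroblasts, 3 rose, 2 fell and 2 were not called, with 1 rise left without KE replicate 3 and 1 fall left without NT replicate 2.

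To compare levels between genes, normalized counts were divided by the length of the canonical transcript in kilobases. In the NT cultures the order was *Casp12* (507 ± 36.7 per kilobase, SD, n = 3), *Casp1* (458 ± 62.0), *Casp4* (363 ± 31.2), *Casp8* (354 ± 39.9), *Ripk1* (263 ± 9.22), *Gsdmd* (119.7 ± 37.3), *Pycard* (99.3 ± 16.8), *Ripk3* (81.0 ± 8.32), *Nlrp3* (74.5 ± 28.8) and *Mlkl* (72.5 ± 8.82). The first 4 genes overlapped each with the next, as did the last 5, and *Ripk1* overlapped with neither neighbour.

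In the KE cultures *Casp1* (945 ± 22.9 per kilobase, SD, n = 3) and *Casp4* (943 ± 48.5) were highest and overlapped. They were followed without overlap by *Casp12* (689 ± 24.3), then by *Casp8* (318 ± 4.36) and *Mlkl* (312 ± 8.96), which overlapped with each other, and by *Ripk1* (249.9 ± 11.6). *Gsdmd* (83.0 ± 4.04) and *Ripk3* (80.1 ± 17.9) overlapped, and *Pycard* (27.1 ± 6.10) and *Nlrp3* (5.47 ± 1.37) were lowest and apart from all others. *Mlkl* thus stood at place 10 of the 10 genes in NT and at place 5 in KE. With the length of all exons of a gene in place of the canonical transcript, a setting chosen after seeing the data, *Mlkl* kept both places, whereas *Casp4* moved from place 2 to 4 in KE and from 3 to 5 in NT. The places of the closely spaced genes therefore depend on the transcript taken.

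**Figure D4:**
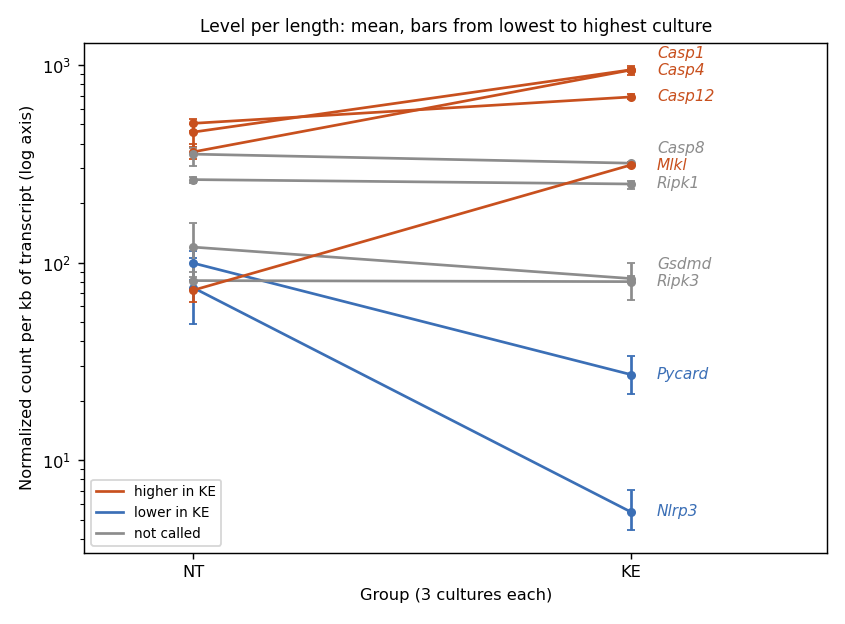
Mean normalized count per kilobase of canonical transcript (log axis) of the 10 genes in NT and KE, with bars from the lowest to the highest of 3 cultures and colour by call. *Mlkl* goes from 72.5 to 312, above *Ripk1*, *Gsdmd* and *Ripk3*, while *Nlrp3* goes from 74.5 to 5.47.

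Because genes of this group moved in both directions, their promoter sequences were searched for short motifs that factors of interferon signalling and of the myeloid lineage are known to bind. RefSeq promoter windows of 300 bases, from 250 before to 50 after a start site, were found for 9 of the 10 genes (12 windows), not for *Gsdmd*, and each matched GRCm39 exactly once. The letters searched on both strands were GAAA followed after any 2 bases by a further GAAA (the core of the interferon-stimulated response element, ISRE), TTCNNNGAA (the gamma-activated site, GAS, which reads the same on both strands) and GAGGAAGT (bound by PU.1). Over all 32851 RefSeq windows, 3.44% held the ISRE letters, 8.30% the GAS letters and 3.20% the PU.1 letters. Of the 12 windows of these genes, 1 held the ISRE letters, 2 the GAS letters and 1 the PU.1 letters, too few to compare with these shares. Matches were found in 3 of the genes and are printed with 10 flanking bases on each side, along the strand of the gene and with the match in capitals.
Casp12, GAS letters starting 102 bases before the start, chr9:5345364-5345392, plus strand: ctggttgactTTCTGGGAAaagagcagga
Casp12, GAS letters starting 36 bases before the start, chr9:5345430-5345458, plus strand: attggtatgtTTCTGGGAAggaaaggcac
Ripk1, GAS letters starting 108 bases before the start, chr13:34186739-34186767, plus strand: agaagctggtTTCCCGGAAggggcggagg
Ripk1, GAS letters starting 11 bases before the start, chr13:34186836-34186864, plus strand: acttcaaacgTTCCCGGAAatcgaaaagc
Ripk1, ISRE letters starting 5 bases before the start, chr13:34186842-34186871, plus strand: aacgttcccgGAAATCGAAAagcgcggaac
Pycard, PU.1 letters on the opposite strand, starting 44 bases before the start, chr7:127593066-127593093, minus strand: tccccaccccACTTCCTCcaccaaccca

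The windows of *Casp12* at 102 bases and of *Pycard* lie outside all Gencode transcripts of their genes. That of *Casp12* at 36 bases lies inside an exon of the canonical transcript. In *Ripk1*, whose annotated gene start lies further upstream, the window at 108 bases is intronic and the other windows lie partly in an exon of 1 of 13 transcripts, and their ISRE and GAS letters overlap. *Ripk1* was not called, and the windows of *Mlkl*, *Casp4* and *Casp1*, which had the largest rises, held none of the 3 sets of letters. A match is a description of the sequence only, and a window without one says only that these letters are not in it.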

How the data were processed

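The deposited table gives 1 signal per gene and culture, made by the authors by normalizing Salmon gene counts with DESeq2. Per the labels, Trim Galore, STAR, Salmon and DESeq2 were used. The labels name the human build GRCh38, whereas the gene identifiers are of mouse and the supplemental methods name GRCm39 for mouse samples. The methods mention batches without naming them, so none was modelled. Only 74.7% to 77.6% of low values came within 0.1 of a multiple of the most frequent one, so whole reads were not recovered and no count test was run. Approximate depth is the total divided by that value.

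Groups and replicate numbers came from the sample titles. Genes with a mean normalized count of 10 or more were tested with limma 3.58.1 (R 4.3.3) on log2 values after adding 1, comparing the groups with no other term and letting the variance follow the mean. P-values are two-sided and adjusted by Benjamini-Hochberg over 15280 genes. Adding 1 makes a log2FC smaller for genes of low level. Fold changes are ratios of group means. On simulated data with 15280 genes, the fit called 47 of 50 genes changed by a log2FC of -1, 38 of 50 changed by -0.5, 42 of 50 changed by 0.5 and 6 of 15080 unchanged genes.

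The members and lists were chosen with earlier results of these data known. Named are the members, *Braf*, the defining markers *Csf1r*, *Aif1*, *Gfap* and *Aldh1l1*, and of each other list up to 2 called rises and 2 called falls, by size, with a mean of at least 50, save where the text says otherwise. Coordinates come from Gencode vM39 on GRCm39. Of the identifiers, 54749 were found in it. The alternatives were other pseudocounts, filters and scalings, no variance trend, the replicate number as a block, and leaving out each culture. Results for 1 further list are not reported here.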

Additional observations from a re-analysis of the deposited data

How the results depend on the processing

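Of the 140 fits of a member under an alternative, 134 kept the direction and the side of the threshold, and the rises of *Casp1*, *Casp4*, *Casp12* and *Mlkl* and the falls of *Nlrp3* and *Pycard* were called in all 14 alternatives. Exceptions concern genes that were not called. *Ripk3* had a log2FC of 0.10 with quantile normalization, of 0.10 without KE replicate 2 and of 0.04 without NT replicate 1, all without passing the threshold. With 1 culture left out at a time, the log2FC was -0.20 to 0.10 for *Ripk3*, -0.71 to -0.25 for *Gsdmd* and -0.24 to -0.092 for *Casp8*, and 2 to 4 members were called lower. With the replicate block, *Gsdmd* kept its log2FC of -0.48 and passed the threshold (adjusted p = 0.037 from limma, 0.0038 to 0.235 over its alternatives). No other member changed its call under the block. Without NT replicate 3, both *Gsdmd* and *Casp8* passed the threshold, with adjusted p of 0.0038 and 0.028 from limma. The correlations of the deviations of same-numbered cultures were 0.059, 0.066 and 0.065 across genes, too low to take the numbers as pairs, although each culture correlated best with its own number. Counts of other lists moved as follows. With no variance trend, and likewise without KE replicate 3, the 7 falls of the oligodendrocyte lineage were 4, the 2 falls of astrocyte markers were 1 and the 3 rises of vascular and fibroblast markers were 1. The oligodendrocyte falls were also 4 without KE replicate 1 or NT replicate 2, and the astrocyte falls also 1 without KE replicate 1, NT replicate 2 or NT replicate 3. With a mean of at least 50, the 8 falls of inflammasome sensors were 5 and the 2 falls of vascular and fibroblast markers were 1. With no filter, the rises of inflammasome sensors were 2 and the fall in the RIPK1 list was 0. With quantile normalization, the rises of gasdermins and of neuron markers were 2 each, and neuron rises were also 2 with no variance trend. Losses of the *Gsdme* and *Fadd* calls without single cultures are given beside these genes. The cause of these moves was not tested, apart from the filters, which change the number of genes tested. Depth is known only approximately, and the 3 cultures per group limit what can be called.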

Other observations

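Some inflammasome genes lay below the mean of 10 normalized counts and were not tested. *Nlrp12* had 10.2, 7.52 and 12.9 normalized counts in KE against 2.23, 3.88 and 0.714 in NT, without overlap. *Naip1* was listed at 0 in all KE cultures and had 7.91, 3.11 and 3.81 in NT. *Gsdma2*, *Gsdma3*, *Gsdmc2* and *Gsdmc3* were listed at 0 in all 6 cultures. These genes were named after their values were seen.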
